A study of Mus musculus with 19 samples.

Results

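The core pluripotency genes Pou5f1, Nanog, Dppa2, Dppa4, Dppa5a, Lin28a, Utf1 and Sall4 were read out by symbol from a table of 38424 gene or locus entries, and all 8 were found. The table held 19 poly(A) RNA-seq libraries of differentiating mouse embryonic stem cells. Short hairpins were directed at lncRNAs that have a coding neighbour, or at the coding gene EVX1. The members were chosen by name, as a gene group, with earlier results of these data known. The line 46c, a Sox1 reporter line, gave 7 libraries after 4 days with 5 nM retinoic acid in the neural medium N2B27, which holds no serum: 2 shNr2f1as, 1 shSox21os, 2 shPou3f3os and 2 shCtrl libraries. The other 12 libraries came from cells kept in medium with 15% serum and without LIF, the cytokine that holds mouse stem cells undifferentiated. These were 2 shEvx1as libraries and 1 shCtrl at day 4 (line CJ7), 2 shEVX1 libraries and 1 shCtrl at day 4, 2 shFendrr and 2 shCtrl libraries at day 5, and 1 shLhx1os and 1 shCtrl library at day 6 (all line CJ9). The labels give the strain 129S4/SvJae for CJ7 and CJ9. Every culture carried a hairpin, the controls a control hairpin, and no undifferentiated culture was analysed here. Line, medium and agent changed together between the 2 kinds of culture and cannot be told apart, and since no label states that numbered libraries are separate cultures, a p-value reflects only how these libraries spread.

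In the early embryo and in stem cells, Pou5f1 (Oct4, a POU homeodomain factor) and Nanog (a homeodomain factor) hold the undifferentiated state together with Sox2, which pairs with Oct4 on DNA. Sall4 is a zinc finger factor of the same circuit, Dppa2 and Dppa4 are SAP domain proteins that act as a pair on chromatin, and Utf1 is a chromatin-bound protein. Dppa5a carries a KH domain, a fold that binds RNA, and Lin28a is an RNA-binding protein that blocks the maturation of let-7 microRNAs. As cells leave pluripotency these genes are switched off at different times, and some, such as Lin28a and Sox2, stay on in early neural progenitors.

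In FPKM, a fragment count scaled by transcript length and library size, the library totals lay between 559050 and 655315. Relative depth, read from the steps between low entries, lay between 0.966 and 1.33. The number of fragments behind a value is unknown, so no counting interval is printed. Evx1 was at 30.2 and 37.0 FPKM in the shEVX1 libraries against 53.9 FPKM in their control, and Fendrr at 0.358 and 0.0768 FPKM in the shFendrr libraries against 1.10 and 1.49 FPKM in their controls. The entries that RefSeq names as Evx1as (5730457N03Rik) and Lhx1os (1500016L03Rik) read 0.354 and 0.290 FPKM in shEvx1as with 1.66 FPKM in its control, and 0 in shLhx1os with 0.0883 FPKM in its control. The Lhx1os values are too low to read depletion from. The Pou3f3os entry (2610017I09Rik) was at 2.40 and 4.13 FPKM in the libraries labelled shPou3f3os and at 5.20 and 1.98 FPKM in the controls, so it does not separate them, and no entry was matched to Nr2f1as or Sox21os.

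The summed level of 10 neural progenitor markers lay between 198 and 304 FPKM in the retinoic acid libraries and between 13.7 and 68.4 FPKM in the LIF-withdrawal libraries. The sum of 10 primitive streak markers lay between 6.51 and 24.6 FPKM in the retinoic acid libraries and between 59.8 and 931 FPKM in the LIF-withdrawal libraries. No marker of either list was at 0 in every library of a culture, but many were low. Of the 10 neural markers, 7 to 8 reached 1 FPKM in a retinoic acid library and 2 to 4 in a LIF-withdrawal library. Of the 10 streak markers, 1 to 5 did in retinoic acid and 6 to 10 in LIF withdrawal. A few genes can carry a sum: in the CJ9 day-4 control, Nes was at 51.1 FPKM of a neural sum of 60.9 FPKM.

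RefSeq promoter windows (GRCm38.p6, 250 bases before to 50 after a transcription start) were at hand for 4 of the 8 genes, and all 4 genes are shown. Capitals mark 3 motifs searched on both strands: the octamer part TTTGCAT (reverse ATGCAAA), the core of sites for Oct4, the Sox part ACAATG (reverse CATTGT), and the GC box GGGCGG (reverse CCGCCC). The windows are Pou5f1 (chr17:35505782-35506081, plus strand), Nanog (chr6:122707239-122707538, plus strand), Lin28a (chr4:134018767-134019066, minus strand) and Utf1 (chr7:139943606-139943905, plus strand), each 5′ to 3′ on the strand of its gene.
Pou5f1: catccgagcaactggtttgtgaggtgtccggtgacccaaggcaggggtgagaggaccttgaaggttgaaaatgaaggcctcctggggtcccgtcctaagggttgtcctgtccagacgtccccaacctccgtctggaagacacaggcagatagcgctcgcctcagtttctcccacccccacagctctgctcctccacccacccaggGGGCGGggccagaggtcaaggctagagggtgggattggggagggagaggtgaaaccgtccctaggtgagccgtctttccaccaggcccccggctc
Nanog: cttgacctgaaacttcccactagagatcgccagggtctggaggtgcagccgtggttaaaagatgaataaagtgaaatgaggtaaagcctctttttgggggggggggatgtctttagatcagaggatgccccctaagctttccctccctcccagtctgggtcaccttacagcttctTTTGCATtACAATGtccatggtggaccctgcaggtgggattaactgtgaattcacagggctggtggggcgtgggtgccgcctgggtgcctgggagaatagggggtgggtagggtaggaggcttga
Lin28a: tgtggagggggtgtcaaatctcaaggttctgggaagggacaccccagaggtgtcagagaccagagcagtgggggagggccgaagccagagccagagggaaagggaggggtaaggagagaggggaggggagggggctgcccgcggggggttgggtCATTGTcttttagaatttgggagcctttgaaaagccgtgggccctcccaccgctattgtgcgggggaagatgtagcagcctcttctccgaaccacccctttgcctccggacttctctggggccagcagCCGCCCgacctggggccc
Utf1: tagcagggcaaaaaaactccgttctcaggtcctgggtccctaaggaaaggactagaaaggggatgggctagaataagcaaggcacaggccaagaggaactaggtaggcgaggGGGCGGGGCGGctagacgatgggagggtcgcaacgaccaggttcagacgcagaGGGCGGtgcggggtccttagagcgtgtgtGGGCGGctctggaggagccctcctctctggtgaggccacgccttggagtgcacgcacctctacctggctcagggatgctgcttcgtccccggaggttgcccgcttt

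Pou5f1 and Nanog had 2 starts each, and the window shown, with its positions, is that of the most upstream start. The Nanog window held the octamer part at -75 to -69 from this start, followed after 1 base by the Sox part at -67 to -62, both on the strand of the gene. Over the 32851 RefSeq windows of this length, 4.63% held the octamer part, 12.6% the Sox part and 35.7% the GC box. With 0 to 2 bases between them, a spacing chosen after the Nanog sequence had been read, the octamer part was followed by the Sox part in 3 windows, and 2 of these were the overlapping windows of Nanog itself. The Pou5f1 window had 1 GC box (-45 to -40), the Utf1 window 4, a pair of which overlap by 1 base, and the Lin28a window 1 Sox part and 1 GC box, both on the strand opposite to the gene. The windows held 11, 4, 10 and 17 CG pairs in Pou5f1, Nanog, Lin28a and Utf1, where the median of all windows was 7. These matches describe the letters of the windows only.

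The order of the 8 genes by level differed between libraries and cultures, apart from the lowest place. Dppa2 was the lowest member in all 19, and the highest member was Pou5f1 in 7 libraries, Dppa5a in 6, Lin28a in 5 and Utf1 in 1. By median over the retinoic acid libraries, the order was Lin28a (238 FPKM), Dppa5a (163 FPKM), Pou5f1 (92.1 FPKM), Utf1 (89.1 FPKM), Sall4 (52.1 FPKM), Nanog (22.5 FPKM), Dppa4 (20.9 FPKM) and Dppa2 (2.67 FPKM). Over the LIF-withdrawal libraries it was Pou5f1 (465 FPKM), Dppa5a (254 FPKM), Utf1 (130.4 FPKM), Lin28a (113 FPKM), Nanog (79.9 FPKM), Sall4 (57.2 FPKM), Dppa4 (41.9 FPKM) and Dppa2 (11.4 FPKM). Neighbours in these orders overlapped in range, except that in retinoic acid the highest Dppa2 value (3.87 FPKM) lay below the lowest of Dppa4 (13.5 FPKM).

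**Figure D1:**
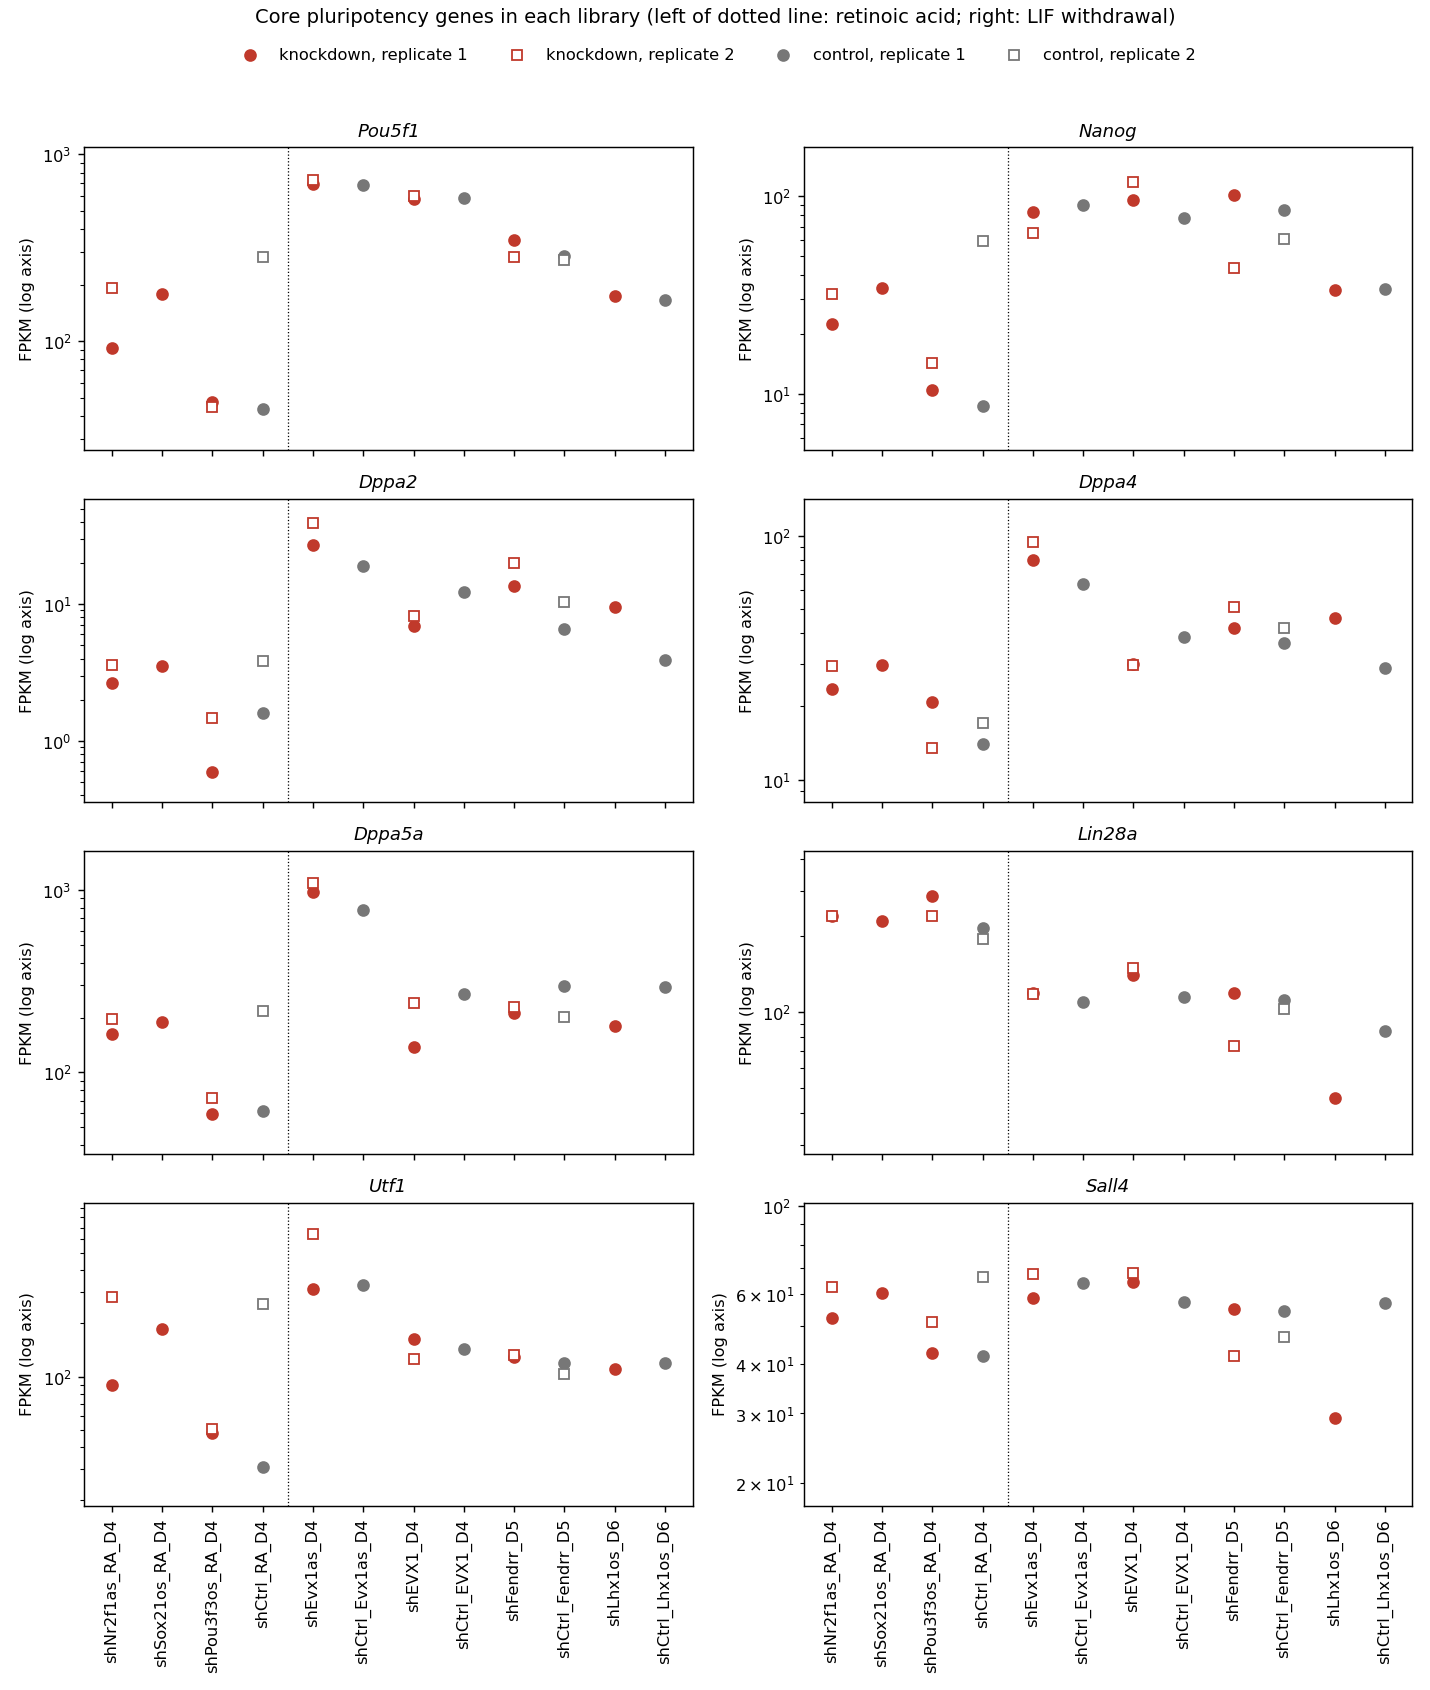
FPKM (log axis) of the 8 genes in each of the 19 libraries, retinoic acid groups left of the dotted line and LIF-withdrawal groups right of it, knockdowns in red and controls in grey, filled circles for replicate 1 and open squares for replicate 2. Pou5f1 in the retinoic acid controls sits at 43.5 and 282 FPKM, Lin28a sits above every LIF-withdrawal value in all 7 retinoic acid libraries, and Sall4 spans only 29.2 to 67.9 FPKM.

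The span from the lowest to the highest library separated the members. Sall4 differed 2.32-fold over the 19 libraries, Lin28a 6.25-fold and Dppa4 7.02-fold. Nanog differed 13.6-fold, Pou5f1 16.7-fold, Dppa5a 18.3-fold, Utf1 20.9-fold and Dppa2 65.9-fold. The Dppa2 span ends at 0.593 FPKM, under the 1 FPKM that the filter on low values asks of 2 libraries. Sall4 had the smallest span of the 8, and its lowest value was in shLhx1os at day 6.

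Retinoic acid controls were set against the mean of both day-4 LIF-withdrawal controls, which share the day but not the line or the medium. Pou5f1, Dppa2, Dppa4 and Dppa5a were lower in the retinoic acid controls, Nanog was lower with a call that rests on 1 control, and Lin28a was higher. Utf1 and Sall4 did not pass. In all, 5 of the 8 members were called lower and 1 higher, where 22.0% of the 14942 entries tested were called lower and 27.0% higher (49.1% in either direction). At an unadjusted p under 0.05 the same 6 members passed, as did 55.8% of entries. The median log2 change was -1.71 over the 8 members and 0.04 over all entries. In bulk RNA, fewer cells that express a gene and less RNA per cell cannot be told apart.

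Among the transcription factors, Pou5f1 (mm9, chromosome 17, 35645752 to 35647722) was at 43.5 and 282 FPKM in the retinoic acid controls, against 689 FPKM in the CJ7 and 587 FPKM in the CJ9 control. Both retinoic acid values lay below both LIF-withdrawal values, and the log2 change was -2.50 ± 0.62 (SE, limma on log2(FPKM + 1), adjusted p = 0.00673). This SE rests on a spread shared by all groups, smaller than the spread of Pou5f1 within the retinoic acid groups. The predicted entry Gm19553 lies wholly inside Pou5f1 and went the same way, between 14.1 and 96.6 FPKM in retinoic acid and between 48.8 and 229 FPKM in LIF withdrawal. Whether strand was used in counting is not given, and reads of these entries cannot then be told apart.

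Nanog (chromosome 6, 122657586 to 122663796) was at 8.65 and 59.1 FPKM in the retinoic acid controls, against 90.2 and 77.1 FPKM in the LIF-withdrawal controls. Its log2 change of -1.81 ± 0.66 passed by a small margin (limma, adjusted p = 0.0406) and was -0.49 without retinoic acid control 1. Sall4 (chromosome 2, 168573832 to 168592701) was at 42.0 and 66.2 FPKM in the retinoic acid controls, against 63.9 and 57.3 FPKM in the LIF-withdrawal controls. These values overlapped, with a log2 change of -0.20 ± 0.21 (limma, adjusted p = 0.461).

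Dppa2 (chromosome 16, 48310387 to 48319626) and Dppa4 (chromosome 16, 48283848 to 48294405) are neighbours, 15981 bp apart. Dppa2 was at 1.59 and 3.87 FPKM in the retinoic acid controls, against 19.1 and 12.3 FPKM in the LIF-withdrawal controls (log2 change -2.21 ± 0.34, limma, adjusted p = 0.000395). Dppa4 was at 14.0 and 17.1 FPKM in the retinoic acid controls, against 63.7 and 38.5 FPKM in the LIF-withdrawal controls (-1.62 ± 0.20, limma, adjusted p = 8.72e-05). Dppa4 had the smallest adjusted p of the 8 genes and replicates that lay close together. Utf1 (chromosome 7, 147129755 to 147131011) was at 30.7 and 258 FPKM in the retinoic acid controls, against 331 and 143 FPKM in the LIF-withdrawal controls. Its groups overlapped, and its log2 change of -1.27 ± 0.78 did not pass (limma, adjusted p = 0.201).

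Of the RNA-binding proteins, Dppa5a (chromosome 9, 78214861 to 78216006) was at 61.2 and 218 FPKM in the retinoic acid controls, against 778 and 268 FPKM in the LIF-withdrawal controls (log2 change -1.97 ± 0.46, limma, adjusted p = 0.00457). Lin28a (chromosome 4, 133559245 to 133574731) was at 215 and 194 FPKM in the retinoic acid controls, against 109 and 115 FPKM in the LIF-withdrawal controls (0.86 ± 0.18, limma, adjusted p = 0.00275). Lin28a was the one member that was higher in retinoic acid. With the CJ7 control alone on the LIF-withdrawal side 5 members were called, without Nanog, where 39.3% of entries were. With the CJ9 control alone 4 were called, without Nanog and Dppa5a, where 41.9% of entries were.

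Over all 7 retinoic acid and all 12 LIF-withdrawal libraries, 2 members did not overlap. Lin28a lay between 194 and 287 FPKM (median 238) in retinoic acid and between 45.9 and 149 FPKM (median 113) in LIF withdrawal, a position above that 15.5% of entries also had. Dppa2 lay between 0.593 and 3.87 FPKM (median 2.67) in retinoic acid and between 3.88 and 39.1 FPKM (median 11.4) in LIF withdrawal, below without overlap like 12.1% of entries. Its margin was 3.87 FPKM in retinoic acid control 2 against 3.88 FPKM in the day-6 control. Pou5f1, Nanog, Dppa4, Dppa5a, Utf1 and Sall4 overlapped between the cultures.

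Sox2, the partner of Oct4 and a factor of neural progenitors, was higher in retinoic acid, where Pou5f1 was lower. It lay between 164 and 196 FPKM in the retinoic acid libraries and between 30.4 and 128 FPKM in the LIF-withdrawal libraries. In the controls it was at 169 and 196 FPKM in retinoic acid, against 69.7 and 36.0 FPKM in LIF withdrawal (log2 change 1.84 ± 0.25, limma, adjusted p = 0.000169).

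The rest of the Lin28 and let-7 list held further genes with higher levels in retinoic acid. Of its 11 genes, 5 were called higher in the retinoic acid controls and none lower, with a median log2 change of 0.52. Among all entries, 27.0% were called higher and 22.0% lower, with a median of 0.04. Igf2bp2, an RNA-binding protein and let-7 target, averaged 97.1 FPKM in retinoic acid controls and 23.1 FPKM in LIF-withdrawal controls (log2 change 2.01 ± 0.33, limma, adjusted p = 0.000555). Its relative Igf2bp3 averaged 54.5 FPKM in retinoic acid controls and 21.0 FPKM in LIF-withdrawal controls (1.48 ± 0.18, limma, adjusted p = 8.1e-05). Dis3l2, the exonuclease that degrades uridylated pre-let-7, and Zcchc11, a terminal uridylyl transferase, had log2 changes of 1.10 ± 0.15 and 0.95 ± 0.17 (limma, adjusted p = 0.000158 and 0.000936). The let-7 microRNAs themselves are too short to be read in poly(A) libraries of this kind.

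Of 20 other genes of the pluripotency network, 6 were called lower and 2 higher in the retinoic acid controls, with a median of -0.70. Over all entries, 22.0% were called lower and 27.0% higher (49.1% in either direction). Tdgf1 (Cripto, the Nodal co-receptor) averaged 9.43 FPKM in retinoic acid controls and 252 FPKM in LIF-withdrawal controls (log2 change -5.04 ± 0.60, limma, adjusted p = 7.41e-05), and the ligand Nodal 8.73 FPKM in retinoic acid controls and 74.5 FPKM in LIF-withdrawal controls (-3.46 ± 0.61, adjusted p = 0.000881). The Krüppel-like factor Klf5 and the T-box factor Tbx3 were also lower, by log2 changes of -2.08 ± 0.32 and -1.94 ± 0.45 (limma, adjusted p = 0.000418 and 0.00448). All 10 genes of the primed epiblast list were called, 4 higher and 6 lower. Fgf5, the growth factor of the epiblast, was lower (-4.10 ± 0.54, adjusted p = 0.000146), and Sox3, a relative of Sox2, was higher (3.51 ± 0.14, limma, adjusted p = 9.36e-08).

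Beside the median of -1.71 over the 8 members, median changes were larger for the primitive streak (-4.05) and neural progenitors (2.03). They were smaller for the germ cell (-0.55), extraembryonic endoderm (-0.54) and fibroblast and feeder (-0.46) lists. The counts below stand beside 22.0% of all entries called lower and 27.0% called higher in this comparison. All 10 primitive streak genes were called lower in the retinoic acid controls, among them T (brachyury, -6.70 ± 0.68) and Eomes (-5.04 ± 0.41), with adjusted p of 2.41e-05 and 5.36e-06 by limma. Of the 8 neural progenitor genes tested, 6 were called higher and none lower, among them Pax6 (5.84 ± 0.24) and Sox1 (5.69 ± 0.27), with adjusted p of 9.36e-08 and 1.77e-07. The germ line also expresses Pou5f1, Nanog and several Dppa genes, and of 9 germ cell genes tested 1 was higher (Kit) and 4 lower (among them Dnd1, Ddx4 and Prdm1). Ddx4 lay at or below 1.76 FPKM and Dazl at or below 0.640 FPKM in every retinoic acid library. Kit averaged 6.47 FPKM and Dnd1 4.51 FPKM in the retinoic acid controls, where 4 (control 1) and 7 (control 2) of the 10 listed germ cell genes reached 1 FPKM. The sum of the list lay between 16.5 and 40.7 FPKM in retinoic acid and between 27.3 and 62.9 FPKM in LIF withdrawal. Of 7 extraembryonic endoderm genes tested, 2 were higher and 4 lower, and of 8 fibroblast and feeder genes 1 was higher and 2 were lower. Of 5 genes of the early cleavage embryo that were tested, 4 were lower, and of 10 housekeeping genes 4 were lower and 1 higher. Among the 4 were B2m, Ppia and Ywhaz, with log2 changes of -2.18, -1.55 and -1.47, a size also seen among the 8 members. The other was Hprt, at most 0.426 FPKM in the retinoic acid libraries and at least 15.5 FPKM in the LIF-withdrawal libraries. The parent line of 46c is known to lack Hprt function.

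Between the 2 retinoic acid controls, several members lay far apart. Pou5f1 was 6.47-fold, Nanog 6.84-fold, Utf1 8.41-fold and Dppa5a 3.56-fold higher in control 2 than in control 1, with the values given above. Dppa2 was 2.43-fold higher there, at 3.87 against 1.59 FPKM, Sall4 1.58-fold and Dppa4 1.23-fold, while Lin28a was at a ratio of 0.902. With 1 library on each side this gap has no test. Members and lists were chosen with earlier results of these data known, so the shares here and below only describe the gap. Of the 7 members that reached 5 FPKM in either library, 4 were at least 2-fold higher in control 2 and none lower, where 2.70% of the 8548 entries at that level were higher and 2.59% lower. Dppa2 stayed under 5 FPKM.

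Most of the wider network shared this gap. Of 15 other pluripotency genes at 5 FPKM or more, 13 were at least 2-fold higher in control 2 and none lower, with a median log2 ratio of 2.13. Esrrb, an orphan nuclear receptor of naive cells, was at 39.8 FPKM in control 2 and 4.27 FPKM in control 1, and the zinc finger gene Zfp42 (Rex1) was at 35.1 FPKM in control 2 and 8.05 FPKM in control 1. Klf4 was at 8.47 FPKM in control 2 and 2.01 FPKM in control 1, and Tdgf1 at 16.6 FPKM in control 2 and 2.30 FPKM in control 1. Of the primed epiblast list 3 of 8 were higher, Otx2, Pou3f1 and Lefty2, and of the Lin28 and let-7 list none of 11. Of 6 neural progenitor genes at that level none was higher and 1, Nes (nestin), was lower, at 37.4 FPKM in control 2 and 75.2 FPKM in control 1. The summed neural markers were at 222 FPKM in control 2 and 304 FPKM in control 1, and between 198 and 257 FPKM in the 5 knockdown libraries. Of 3 germ cell genes 1 was higher (Tfap2c), and the sum of that list was 40.7 FPKM in control 2 and 16.5 FPKM in control 1. In the remaining lists Fgf8 (primitive streak), Gm4340 (early cleavage embryo) and Thy1 (fibroblast) were higher and B2m was lower in control 2. The part of any of these cell types in the gap was not tested.

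**Figure D2:**
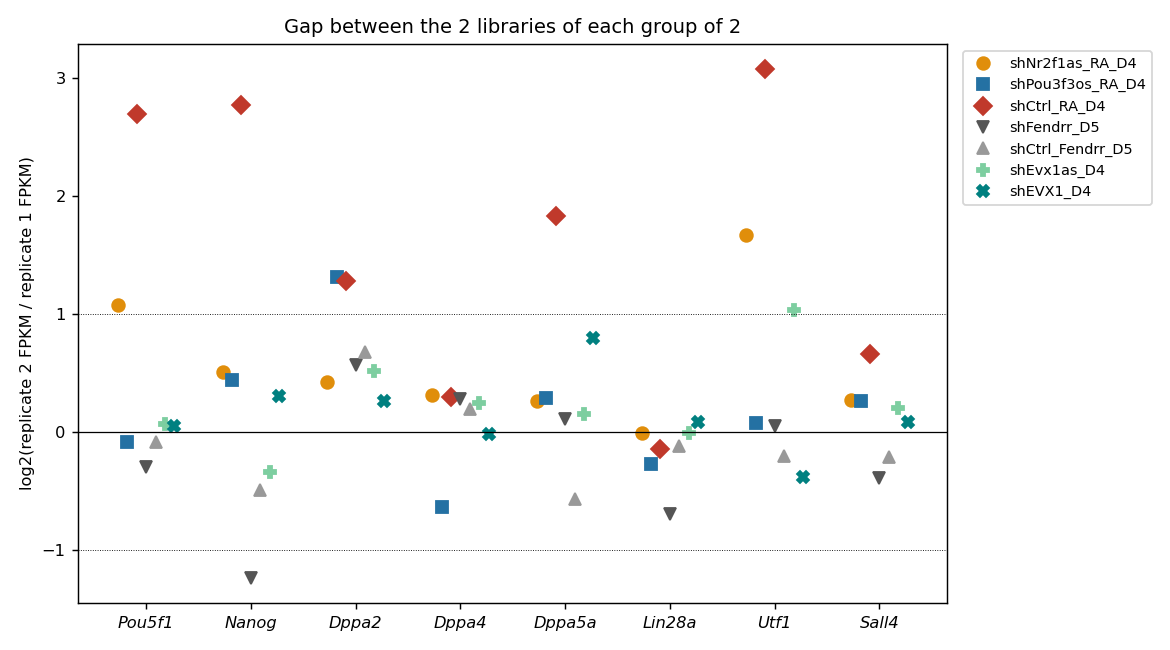
Log2 ratio of replicate 2 to replicate 1 for the 8 genes in each of the 7 groups with 2 libraries; dotted lines mark a 2-fold difference. The retinoic acid controls (red diamonds) stand at 2.69, 2.77, 1.83 and 3.07 for Pou5f1, Nanog, Dppa5a and Utf1, and Lin28a lies near 0 in that group.

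Other replicate pairs were closer in these genes, with a few exceptions. In shNr2f1as, Pou5f1 differed 2.10-fold and Utf1 3.18-fold between replicate 2 and replicate 1, and in shEvx1as Utf1 differed 2.04-fold. In shFendrr, Nanog was at a ratio of 0.425. Dppa2 differed 2.49-fold between the libraries labelled shPou3f3os, under 5 FPKM in both. Over all entries at 5 FPKM or more, a difference of 2-fold or more in either direction was seen in 2.47% in shNr2f1as, 1.77% in shEvx1as, 5.73% in shFendrr, 0.684% in shEVX1, 0.798% in the libraries labelled shPou3f3os and 1.47% in the day-5 controls. The pair of retinoic acid controls, at 5.29%, was thus within the range of the other pairs over all entries.

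The spread within groups followed this gap. The residual SD of Pou5f1 on the log2 scale was 1.17 in the retinoic acid groups (3 degrees of freedom) and 0.11 in the LIF-withdrawal groups (4 degrees of freedom). For Utf1 it was 1.41 in retinoic acid and 0.39 in LIF withdrawal, for Nanog 1.11 in retinoic acid and 0.49 in LIF withdrawal, and for Dppa5a 0.76 in retinoic acid and 0.35 in LIF withdrawal. Lin28a alone went the other way, at 0.12 in retinoic acid and 0.25 in LIF withdrawal. Over both sets, Utf1, Nanog and Pou5f1 varied more than 99.7%, 99.4% and 99.3% of all entries tested. The fit shares 1 spread per gene, so the errors of these 3 genes carry it in every comparison. The shared SD was 0.62 for Pou5f1, 0.66 for Nanog, 0.78 for Utf1 and 0.46 for Dppa5a. Each lay below the value within retinoic acid and above the value within LIF withdrawal. For these genes, errors and adjusted p against the retinoic acid controls may thus be too small, and those within LIF withdrawal too large.

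In the retinoic acid knockdowns no member was called, and all 3 knockdowns share the same 2 controls. In shNr2f1as, Pou5f1 was at 92.1 and 194 FPKM, Nanog at 22.5 and 32.0 FPKM and Utf1 at 89.1 and 283 FPKM. Pou5f1 and Nanog lay between the 2 controls there, while Utf1 replicate 2 lay above both. Dppa4 was at 23.6 and 29.3 FPKM in shNr2f1as, above both controls at 14.0 and 17.1 FPKM (log2 change 0.73 ± 0.20, limma, adjusted p = 0.0988), and Lin28a was at 239 and 238 FPKM, also above both.

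Fitted log2 changes in shNr2f1as ran from 0.11 to 0.82, and 0 of 8 were called by limma, where 0.676% of all entries were. On the FPKM scale the means of Pou5f1 (143 FPKM in shNr2f1as, 163 FPKM in the controls) and Nanog (27.2 FPKM in shNr2f1as, 33.9 FPKM in the controls) went the other way. Dppa4 alone passed at an unadjusted p under 0.05, a level reached by 18.1% of entries. Above both controls lay 2 members, Dppa4 and Lin28a, and 25.5% of entries, and below both no member and 20.8% of entries.

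In shSox21os, with 1 library, Pou5f1 was at 180.2 FPKM, Nanog at 34.1 FPKM, Dppa5a at 188 FPKM and Utf1 at 187 FPKM, each between the 2 controls. Dppa4 was at 29.5 FPKM and Lin28a at 229 FPKM, above both. Changes ran from 0.17 to 1.05, the lowest adjusted p was 0.229 (Dppa4, 0.89 ± 0.24, limma), and 0 of 8 were called where 0.0669% of entries were. Dppa4 alone passed at an unadjusted p under 0.05, as did 11.4% of entries. Above both controls lay 37.2% of all entries and below both 30.7%.

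Both libraries labelled shPou3f3os sat near retinoic acid control 1. There Pou5f1 stood at 47.2 and 44.6 FPKM, with 43.5 and 282 FPKM in the controls, and Nanog at 10.5 and 14.2 FPKM, with 8.65 and 59.1 FPKM in the controls. Utf1 stood at 48.1 and 50.7 FPKM in the libraries labelled shPou3f3os and at 30.7 and 258 FPKM in the controls, and Dppa5a at 59.5 and 72.7 FPKM in these libraries and at 61.2 and 218 FPKM in the controls. In each of these 4 genes the knockdown pair was close and the controls lay far apart.

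The fitted changes for the libraries labelled shPou3f3os were -1.26 ± 0.62 for Pou5f1, -0.86 ± 0.66 for Nanog, -0.85 ± 0.78 for Utf1 and -0.81 ± 0.46 for Dppa5a, with adjusted p between 0.279 and 0.586 by limma. Dppa2 lay below both controls, at 0.593 and 1.47 FPKM against 1.59 and 3.87 FPKM in the controls (-0.84 ± 0.34, adjusted p = 0.193), and Lin28a above both, at 287 and 238 FPKM against 215 and 194 FPKM in the controls (0.35 ± 0.18, adjusted p = 0.3). In all 0 of 8 members were called where 2.32% of entries were, and Dppa2 alone passed at an unadjusted p under 0.05, as did 20.8% of entries. Positions below both controls were held by 21.6% of entries and above both by 31.5%.

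Which control was kept decided the direction of several changes. Without control 1, the log2 changes in the libraries labelled shPou3f3os were -2.59 for Pou5f1, -1.71 for Dppa5a, -2.18 for Nanog and -2.36 for Utf1. Without control 2, the same 4 genes had changes of 0.073, 0.10, 0.46 and 0.67. In shNr2f1as the change of Pou5f1 was -1.07 without control 1 and 1.60 without control 2, and in shSox21os it was -0.64 and 2.02. The direction of these changes in the retinoic acid knockdowns thus turned on 1 library. Each fit with 1 control also leaves the gap between the 2 controls out of the spread, which makes its errors smaller, so no call is read from it. Set side by side without a test, 7 of the 8 members, all but Lin28a, lay higher in both shNr2f1as libraries than in both labelled shPou3f3os, as did 18.1% of entries, and none lay lower, as did 22.6%.

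**Figure D3:**
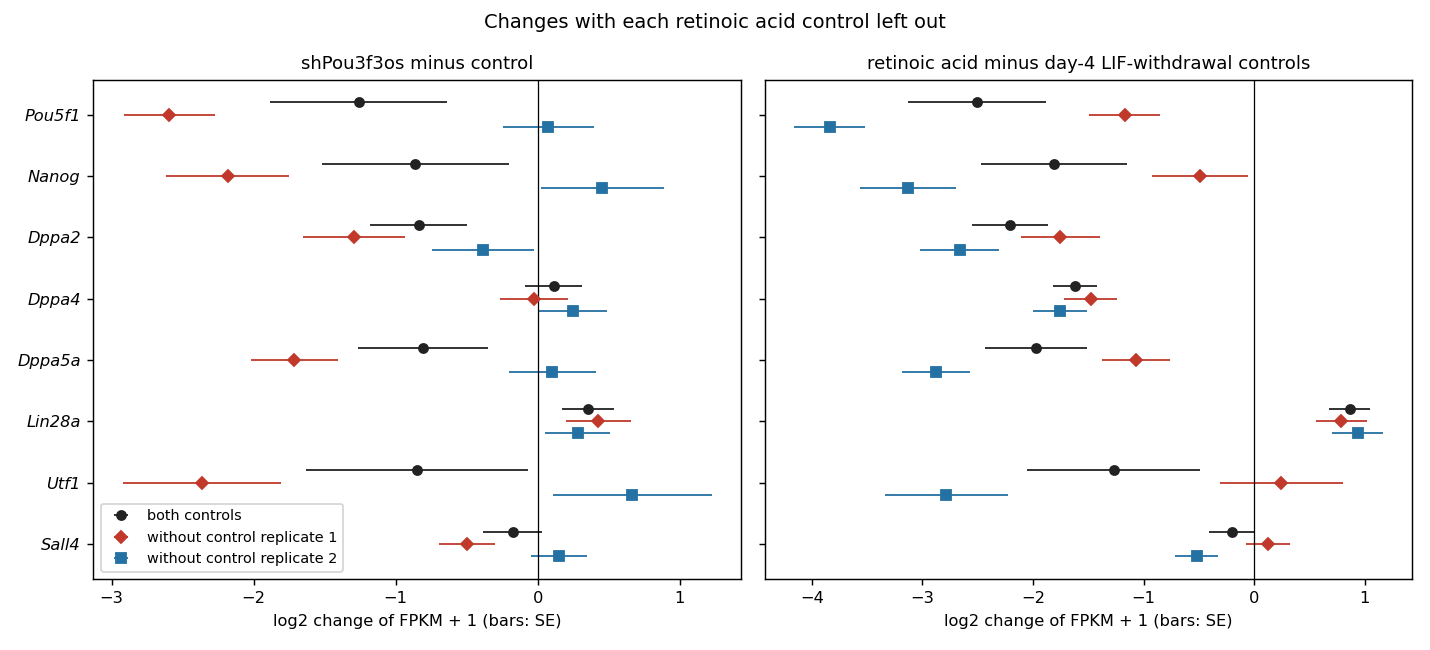
Log2 change of FPKM + 1 with its SE for the 8 genes in libraries labelled shPou3f3os against their controls (left) and in retinoic acid controls against day-4 LIF-withdrawal controls (right), with both retinoic acid controls (black), without control 1 (red) and without control 2 (blue). Pou5f1 moves between -2.59 and 0.073 on the left and between -1.17 and -3.84 on the right, where Dppa4 stays between -1.48 and -1.75.

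The comparison with LIF withdrawal rested on the same pair of controls. Without retinoic acid control 1, Pou5f1 was at -1.17 and Dppa5a at -1.06, and without control 2 they were at -3.84 and -2.88. Utf1 was at 0.25 without control 1 and at -2.79 without control 2. Like Pou5f1 and Dppa5a, Dppa2, Dppa4 and Lin28a kept their direction either way. The changes of these last 3 were -1.75, -1.48 and 0.79 without control 1, and -2.66, -1.75 and 0.94 without control 2. Here too the gap between the 2 controls drops out of the spread, so no call is read from these fits.

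Across all 12 LIF-withdrawal libraries, knockdowns included, Pou5f1 was the one member that stepped down at each day with no overlap. It lay between 581 and 727 FPKM in the 6 day-4 libraries, between 271 and 349 FPKM in the 4 day-5 libraries and at 167 and 176 FPKM in the 2 day-6 libraries. Such a stepwise fall was seen in 1 of 8 members and in 1.47% of all entries, no member rose stepwise (1.53% of entries), and with only the CJ9 libraries at day 4 it was seen in Pou5f1 alone and in 2.72% of entries (3.17% rose). Each day is also a separate experiment, so day and experiment cannot be told apart.

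In the CJ9 controls, Pou5f1 was at 587 FPKM at day 4, 287 and 271 FPKM at day 5 and 167 FPKM at day 6. The change from day 4 to day 5 was -1.07 ± 0.76 (limma, adjusted p = 0.431) with the spread of all 19 libraries. With the LIF-withdrawal libraries alone the same change had an SE of 0.15 and was called (adjusted p = 0.0206), the 1 call among the 8 members, where 4.29% of entries were called. From day 5 to day 6 it was -0.74, with an adjusted p of 0.654 over all libraries and 0.0673 over the LIF-withdrawal libraries.

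Among the CJ9 controls alone, Dppa2 and Lin28a stepped down at each day as well, so that 3 of 8 members did, as did 12.7% of entries, and none stepped up, as did 17.9%. Nanog was at 77.1 FPKM at day 4, 84.9 and 60.4 FPKM at day 5 and 33.7 FPKM at day 6, and Dppa2 at 12.3, then 6.52 and 10.5, then 3.88 FPKM. Dppa4 was at 38.5 FPKM at day 4, 36.5 and 41.8 FPKM at day 5 and 28.9 FPKM at day 6, and Lin28a at 115, then 112 and 103, then 84.3 FPKM. Dppa5a (268, then 297 and 201, then 296 FPKM), Utf1 (143, then 119 and 103, then 119 FPKM) and Sall4 (57.3, then 54.4 and 46.9, then 57.2 FPKM) were no lower at day 6 than in the lower day-5 library.

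By limma over all libraries 0 of 8 members were called at day 5 against day 4, where 7.31% of entries were, and none passed at an unadjusted p under 0.05, where 24.5% of entries did. At day 6 against day 5, 0 of 8 were called (3.61% of entries), and 1, Dppa2, passed at an unadjusted p under 0.05 (19.9% of entries). As single libraries, day 6 stood at a ratio of 0.283 to day 4 for Pou5f1, 0.314 for Dppa2 and 0.437 for Nanog. These 3 of 8 members were at least 2-fold lower, against 4.27% of entries at 5 FPKM or more, and none was 2-fold higher, against 10.1%.

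**Figure D4:**
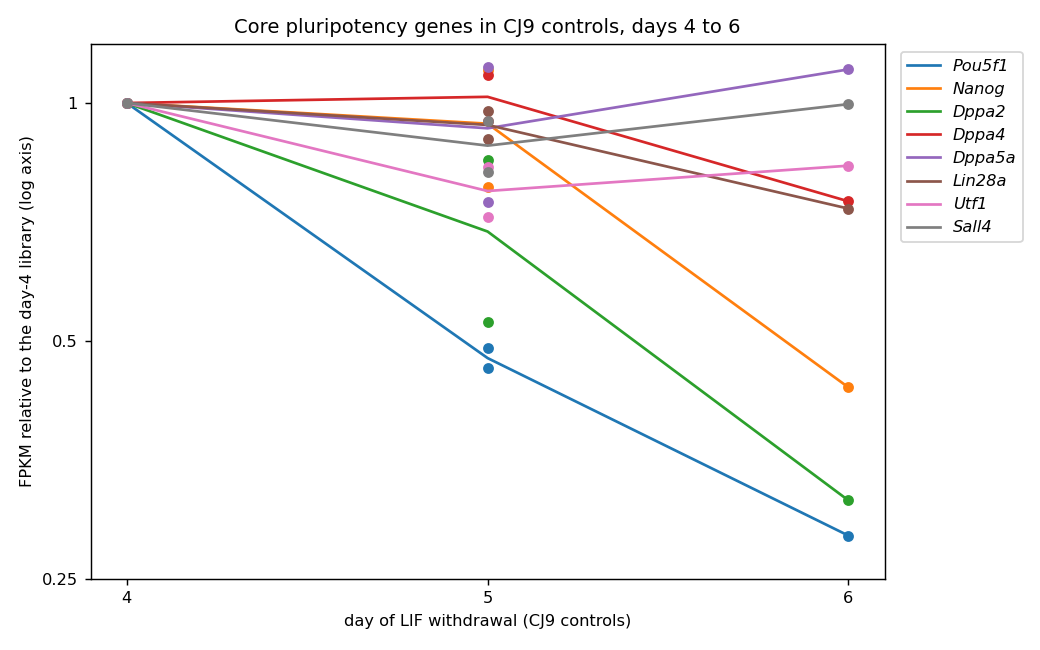
FPKM of the 8 genes in the CJ9 controls relative to the day-4 library (log axis) against day of LIF withdrawal, 1 point per library and lines through the mean of each day. Pou5f1 falls to a ratio of 0.283 at day 6, Dppa2 to 0.314 and Nanog to 0.437, while Dppa5a and Sall4 end at 1.10 and 0.997.

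A few other network genes were higher at day 5 than at day 4. Dppa3 (Stella) averaged 9.01 FPKM in the day-5 controls and was at 0.721 FPKM in the day-4 control of CJ9 (log2 change 2.53 ± 0.37, limma, adjusted p = 0.0047), and the cofactor gene Tcl1 and the zinc finger gene Prdm14 were also called higher (1.83 ± 0.46 and 1.36 ± 0.37, adjusted p = 0.0374 and 0.0485). They were 3 of 20 in their list, with none lower, where 5.94% of all entries were called higher and 1.38% lower. The list's median was 0.74 where that of all entries was 0.10. The germ cell gene Kit was higher at day 5 as well (1.33 ± 0.24, limma, adjusted p = 0.0102).

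The day-4 libraries differed by line in 5 of the 8 genes. Dppa2 was at 27.3 and 39.1 FPKM in shEvx1as and 19.1 FPKM in its control (all CJ7), against 6.87 and 8.22 FPKM in shEVX1 and 12.3 FPKM in its control (all CJ9). Dppa5a was at 979, 1090.0 and 778 FPKM in these CJ7 libraries, against 138, 239.9 and 268 FPKM in these CJ9 libraries. Pou5f1, Dppa4 and Utf1 were likewise higher in all 3 CJ7 libraries, and no member was lower, where 23.8% of entries lay above and 21.1% below without overlap. Between the controls alone 2 of 8 members were at least 2-fold higher in CJ7 and none lower, with 3.21% of entries higher and 2.23% lower. Dppa4 lay between 63.7 and 94.6 FPKM in CJ7 and between 29.5 and 38.5 FPKM in CJ9. Line and experiment cannot be told apart here.

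The knockdowns in LIF withdrawal gave no call among the 8 genes. In shEvx1as, Pou5f1 was at 696 and 727 FPKM beside 689 FPKM in the control, Dppa4 at 79.6 and 94.6 FPKM beside 63.7 FPKM in the control, and Nanog at 82.7 and 65.3 FPKM beside 90.2 FPKM in the control. Above the control in both libraries lay 5 members (44.6% of entries did), and Nanog lay below it (26.3%). The 5 were Pou5f1, Dppa2, Dppa4, Dppa5a and Lin28a, and the change of Pou5f1 turned to -0.022 when libraries were rescaled by the median ratio. Changes ran from -0.29 to 0.74, all with an adjusted p of 1 by limma. None of the 8 was called, against 0.00669% of entries, and none passed at an unadjusted p under 0.05, against 4.38%.

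In shEVX1, Pou5f1 was at 581 and 599.6 FPKM beside 587 FPKM in the control, Lin28a at 140.1 and 149 FPKM beside 115 FPKM in the control, and Dppa5a at 138 and 239.9 FPKM beside 268 FPKM in the control. Nanog, Lin28a and Sall4 lay above the control in both libraries (46.7% of entries) and Dppa2, Dppa4 and Dppa5a below it (26.5%). Changes ran from -0.65 to 0.45, again with an adjusted p of 1 by limma. None was called, against 0.00669% of entries, and none passed unadjusted, against 3.32%.

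In shFendrr at day 5, Dppa2 was at 13.5 and 20.0 FPKM, against 6.52 and 10.5 FPKM in the controls (log2 change 0.91 ± 0.34, limma, adjusted p = 0.639). Dppa4 was at 42.1 and 51.1 FPKM beside 36.5 and 41.8 FPKM in the controls, and Utf1 at 128 and 133 FPKM beside 119 and 103 FPKM in the controls. These 3 members lay above both controls, as did 14.4% of entries, and none below, as did 15.7%. Pou5f1 was at 349 and 283 FPKM in shFendrr and 287 and 271 FPKM in the controls, which overlap. None of the 8 was called by limma, against 0.147% of entries, and Dppa2 alone passed at an unadjusted p under 0.05, against 7.03%.

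In shLhx1os at day 6, with 1 library on each side and no test, Pou5f1 was at 176 FPKM beside 167 FPKM in the control and Nanog at 33.7 FPKM in both. Dppa2 was at 9.52 FPKM beside 3.88 FPKM in the control, a ratio of 2.45, and Dppa4 at 46.3 FPKM beside 28.9 FPKM in the control, a ratio of 1.60. Lin28a was at 45.9 FPKM beside 84.3 FPKM in the control and Sall4 at 29.2 FPKM beside 57.2 FPKM in the control, ratios of 0.545 and 0.511. Of the 8 members 1 was at least 2-fold higher and none 2-fold lower, against 5.78% and 7.67% of the 9015 entries at 5 FPKM or more. Dppa2 and Dppa4 lay above the controls in each library of shEvx1as, shFendrr and shLhx1os and below the control in both of shEVX1. This pattern was picked out after the values were seen, and the share of all entries that have it was not counted, so no shared response is read from it. Taken singly, 44.6% of entries lay above the control in shEvx1as, 14.4% above both controls in shFendrr and 26.5% below the control in shEVX1. Dppa4 cleared the controls of shFendrr narrowly, at 42.1 FPKM in replicate 1 against 41.8 FPKM in control 2.

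Members were also compared with one another by how their log2 levels moved within each culture, as Pearson r with the mean of the other 7, each scaled to its own spread. These r values describe 12 LIF-withdrawal and 7 retinoic acid libraries that share controls, days and lines, and carry no test. In retinoic acid, r was 0.97 for Utf1, 0.95 for Dppa5a, 0.93 for Pou5f1, 0.90 for Nanog and Sall4, 0.81 for Dppa2, 0.66 for Dppa4 and -0.44 for Lin28a. In LIF withdrawal it was 0.88 for Pou5f1, 0.82 for Utf1, 0.72 for Dppa5a, 0.64 for Sall4, 0.63 for Dppa2, 0.57 for Lin28a, 0.55 for Dppa4 and 0.52 for Nanog. Lin28a was the member with a negative r, and in retinoic acid only.

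Of 12185 other named entries, 128 had r of 0.8 or more with the mean profile of the 8 members in both cultures. Ranked by the smaller of the 2 r values, the first 10 were Bcat2, Zscan10, Phc1, Jarid2, Rbpms2, Apobec3, Gdf3, Syt9, Gatsl3 and Eps8. For Bcat2, r was 0.97 in retinoic acid and 0.98 in LIF withdrawal, for Zscan10 0.99 and 0.96, and for Phc1 0.96 and 0.97. Zscan10 lay between 12.4 and 58.2 FPKM in retinoic acid and between 27.7 and 111 FPKM in LIF withdrawal. Sox2 had r of 0.16 in retinoic acid and 0.76 in LIF withdrawal.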

How the data were processed

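The authors deposited 1 column of FPKM per library, for genes and assembled loci. Per the labels' protocols, mRNA was bead-purified and a stranded mRNA kit was used. Per the submitters' processing notes, tools included CASAVA and TopHat2 2.0.11, and mm10 and mm9 both appear as builds. No source used here gives the quantifier, annotation or use of strand. The table's positions are of the mm9 kind (starts made 1-based) and were not mixed with the GRCm38.p6 windows of RefSeq.

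FPKM was turned into log2(FPKM + 1), on which low genes appear to change less than they do. The filter (1 FPKM or more in 2 or more libraries) kept 14942 entries, all 8 members among them. limma 3.58.1 (R 4.3.3) fitted 12 group means to the 19 libraries, leaving 7 residual degrees of freedom, with a mean-dependent variance prior. Tests were two-sided, with Benjamini-Hochberg adjustment over all entries at 0.05. A group of 1 library is taken to vary like the rest. The fit was tested on simulated data in which each gene had the same spread in all groups. That test does not cover the unequal spread between the cultures described above. Single libraries were compared by FPKM ratio, with a floor of 5 FPKM in either and a 2-fold limit.

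Members and gene lists were chosen with earlier results of these data known. All members were named, and from each list up to 4 called genes with the largest change. Genes given by level alone, and those named in the gap between controls, were chosen after their values were seen. The most similar libraries, both of shEVX1, had a Pearson r of 0.993 and were kept as 2.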

Additional observations from a re-analysis of the deposited data

How the results depend on the processing

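Absolute depth is unknown, and Dppa2 in retinoic acid lies near the 1 FPKM of the filter. The count of members called kept within 1.5 times under a pseudocount of 0.1, a floor of 5 FPKM, no filter, rescaling to equal totals or by the median ratio and a prior without a trend in every comparison. Without a filter the retinoic acid comparison called 5 members, Nanog falling out (adjusted p = 0.121), with 7625 of 27960 entries called. With libraries of the same culture alone, 1 member was called at day 5 against day 4 (641 of 14942 entries), and with a replicate block 1 in shPou3f3os (Dppa2, -0.84, limma adjusted p = 0.0443; 813 entries); the block changed no other count. The labels do not say what equal replicate numbers share, and with 2 numbers a group no pairing was taken from them: replicate differences correlated across entries at 0.35 (shFendrr with controls), 0.30 (shNr2f1as with controls) and -0.02 (shPou3f3os with controls). Each day-4 control alone as reference was an alternative added after seeing the data. Leaving out 1 library moved the changes in shPou3f3os over the ranges given below. The Nanog change in retinoic acid against LIF withdrawal was smaller without retinoic acid control 1. Counts over all entries moved more: under these settings they ran from 0 to 213 in shEvx1as and 0 to 136 in shEVX1 (1 each in the reported fit), 0 to 231 in shFendrr (22), 0 to 391 in shNr2f1as (101), 7 to 216 in shSox21os (10), 0 to 1240 in shPou3f3os (346), 406 to 1223 at day 5 against day 4 (1093), 117 to 853 at day 6 against day 5 (540) and 5792 to 7625 in retinoic acid against LIF withdrawal (7335). Rescaling by the median ratio moved all changes by -0.12 at day 5 against day 4, where Dppa4 turned to -0.10, by -0.069 in shEvx1as, where Pou5f1 turned to -0.022, and by -0.075 in shEVX1, where Pou5f1 turned to -0.068 and Utf1 to -0.073; with equal totals these 2 were at -0.0051 and -0.010 there. The cause was not tested. Of 192 changes with a library left out, 39 turned sign. In shPou3f3os the ranges were -2.59 to 0.073 (Pou5f1), -2.18 to 0.46 (Nanog), -1.71 to 0.10 (Dppa5a), -2.36 to 0.67 (Utf1), -0.19 to 0.41 (Dppa4) and -0.50 to 0.15 (Sall4). In shNr2f1as they were -1.07 to 1.60 (Pou5f1), -1.11 to 1.53 (Nanog), -0.25 to 0.66 (Dppa2), -0.29 to 1.53 (Dppa5a), -0.70 to 2.33 (Utf1) and -0.21 to 0.44 (Sall4). In shSox21os they were -0.64 to 2.02 (Pou5f1), -0.78 to 1.86 (Nanog), -0.11 to 0.80 (Dppa2), -0.21 to 1.60 (Dppa5a), -0.47 to 2.57 (Utf1) and -0.13 to 0.51 (Sall4). In shFendrr they were -0.72 to 0.50 (Nanog), -0.44 to 0.13 (Dppa5a), -0.55 to 0.14 (Lin28a) and -0.26 to 0.12 (Sall4). In shEvx1as and shEVX1 they were -0.12 to 0.078 (Sall4, shEvx1as), -0.072 to 0.96 (Utf1, shEvx1as), -0.017 to 0.030 (Pou5f1, shEVX1) and -0.19 to 0.19 (Utf1, shEVX1). In retinoic acid against LIF withdrawal they were -0.52 to 0.13 (Sall4) and -2.79 to 0.25 (Utf1). At day 5 against day 4 they were -0.072 to 0.12 (Dppa4), -0.42 to 0.15 (Dppa5a) and -0.35 to 0.14 (Nanog), and at day 6 against day 5 -0.0083 to 0.56 (Dppa5a).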
